A study of Rattus norvegicus with 8 samples.

Results

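Genes of DNA replication and of mitosis were followed through injured rat sciatic nerve, spinal cord and cultured Schwann cells. The set had 37 genes fixed by name, 17 of the G1/S transition and replication and 20 of G2/M and the spindle. A gene was represented by the probe with the highest mean over the 8 samples, and 33 of the 37 had a probe in the authors' value table, which held 12765 named genes in all. The 33 were 16 replication genes and 17 mitosis genes. Mcm5, Bub1b, Top2a and Mki67 had no match and were not analysed here.

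A cell that enters the cycle turns on cyclin E and E2F1, loads the MCM helicase onto replication origins, and makes the clamp and nucleotides that DNA synthesis needs. Later it turns on cyclins A and B with the kinase CDK1, then the kinases, motors and kinetochore proteins that build the spindle, and it leaves mitosis through the anaphase-promoting complex. Schwann cells of an intact adult nerve rarely divide, those of a cut nerve re-enter the cycle, and leukocytes and fibroblasts of a wound can divide too. G1/S promoters are known for E2F sites, and G2/M promoters for the CHR (cell cycle genes homology region) element beside CCAAT boxes bound by NF-Y.

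The animals were adult female Sprague-Dawley rats with no transgene named, and each nerve or cord sample was a pool of 3 animals. The nerve groups, taken 1 day after the left sciatic nerve was cut at mid-thigh, were the proximal segment, the distal segment and the right, contralateral nerve, whose label also mentions a site of PBS injection. The cord groups were a dorsal hemisection and a C-level control, both of day 5. Their labels count the days from an injection and the protocol from an injury, and the sources used here do not say which was done, or with what agent. Schwann cells came from the sciatic nerves of neonatal rats, were freed of fibroblasts with AraC, an antibody and complement, and were passaged in medium with serum, pituitary extract and forskolin, so all 3 cultures had been grown under mitogens. Cells stimulated with S100A8/A9, a pair of calcium-binding proteins, at 5 µg/ml were collected after 1 h and after 24 h, beside 1 unstimulated culture of 24 h. That culture served as the control of both times, so time in culture and stimulation cannot be told apart at 1 h.

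With 1 array in each group, differences carry no replicate check and were not tested. Values are the authors' log2 intensities, and a log2 ratio of 1 is a 2-fold difference. An error after ± is the standard error that spot-to-spot noise gives a ratio. It leaves out all variation between animals, cultures and arrays. On each array 66.7% to 77.6% of the probes cleared background, and 29 of the 33 genes were so on all 8 arrays. Where only the lower sample was not well above background, a ratio is a bound, written "at least" or "at most". Sample names follow the column headings of the value table. For 7 of its 8 columns, the scan with the same probe ranks is recorded under another sample, so every direction below rests on those headings. Several values differ widely when each scan is taken for the sample it is recorded under. These values ("scans as recorded") are given with most comparisons and, for the others, in the last section.

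Markers were checked against the tissue labels. The 9 Schwann and myelin markers were well above background in all 8 samples. In each of the 3 cultures 4 of 6 fibroblast markers were above background, with the collagen genes Col1a1 and Col1a2 at 17.14 to 17.97. The fibroblast genes Dcn and Lum were not. Of 7 neutrophil markers 1 or 2 were above background in a culture, and S100a8 and S100a9 were not. Of 4 erythroid markers 2 or 3 were above background, and the haemoglobin gene Hbb was not. The 6 measured neuron markers were all above background in the cord, and 5 of them in each nerve sample. In the cultures 3 or 4 of 6 were: Snap25 was not, while the neurofilament gene Nefm stood at 12.79 to 13.12, above its 8.83 in the contralateral nerve. Snap25 stood at 14.80 and 12.45 in the C-level and dorsal hemisection cord columns and at 1.98 to 5.12 in the other columns. The scans recorded under those cord samples rank with the 24 h and unstimulated Schwann cell columns, where Snap25 was 1.98 and 2.41. Tissue thus went with the column headings for this marker, and not with the recorded samples. Which sample of a tissue is which was not settled by the markers.

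Promoter sequences are shown because their motifs differ between the classes that the expression values contrast. Of the 33 genes, 24 (11 of replication, 13 of mitosis) matched an entry of the RefSeq promoter table of build GRCr8, with 250 bases before and 50 after the start site. The first entry of each gene was used, while the shares over all promoters count every entry. An E2F core, spelled TTGGCGC or TTCCCGC or TTCGCGC or TTGCCGC on either strand, was in 7 of the 11 replication promoters and 2 of the 13 mitosis promoters, against 9.52% of 33469 promoters in the table. A CHR core, TTTGAA or TTCGAA, was in 3 of 11 and 8 of 13, against 19.7% of all. The box CCAAT was in 7 of 11 and 11 of 13, against 37.5% of all. A CHR core and a CCAAT box together were in 2 of 11 replication promoters and 8 of 13 mitosis promoters, against 7.95% of all. In a window of 200 bases, with 150 before the start, the CHR core was in 1 of 11 and 8 of 13. These are matches of letters, and no binding was measured.

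For each class the 2 promoters with the most matches are printed, and Cdc20, which was added after its values were seen. Capitals mark E2F, CHR and CCAAT matches, those on the other strand as their reverse complement, and neighbouring matches can overlap in 1 run. Mcm7 lies at chr12:22163129-22163428 and Mcm6 at chr13:42404303-42404602, both on the minus strand. Cdk1 lies at chr20:19265043-19265342 on the plus strand. Ccnb2 lies at chr8:79981609-79981908 and Cdc20 at chr5:137255750-137256049, both on the minus strand.
Mcm7: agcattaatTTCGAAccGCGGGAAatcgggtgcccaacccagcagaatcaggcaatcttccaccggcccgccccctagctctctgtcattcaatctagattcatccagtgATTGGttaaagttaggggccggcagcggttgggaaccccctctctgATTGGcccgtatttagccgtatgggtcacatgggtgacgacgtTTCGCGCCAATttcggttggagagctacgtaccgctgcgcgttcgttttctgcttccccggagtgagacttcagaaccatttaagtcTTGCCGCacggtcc
Mcm6: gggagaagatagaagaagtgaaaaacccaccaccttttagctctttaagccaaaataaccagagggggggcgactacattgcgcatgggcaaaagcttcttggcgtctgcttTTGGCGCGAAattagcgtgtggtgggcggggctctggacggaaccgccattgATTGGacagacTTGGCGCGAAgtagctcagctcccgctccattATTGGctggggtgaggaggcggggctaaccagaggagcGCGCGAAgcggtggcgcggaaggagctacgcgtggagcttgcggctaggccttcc
Cdk1: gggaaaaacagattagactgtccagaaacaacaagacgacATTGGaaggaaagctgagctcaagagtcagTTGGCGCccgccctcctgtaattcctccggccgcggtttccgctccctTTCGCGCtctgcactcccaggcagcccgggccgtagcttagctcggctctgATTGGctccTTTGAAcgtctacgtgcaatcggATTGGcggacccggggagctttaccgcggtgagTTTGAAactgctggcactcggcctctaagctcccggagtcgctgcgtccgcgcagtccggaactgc
Ccnb2: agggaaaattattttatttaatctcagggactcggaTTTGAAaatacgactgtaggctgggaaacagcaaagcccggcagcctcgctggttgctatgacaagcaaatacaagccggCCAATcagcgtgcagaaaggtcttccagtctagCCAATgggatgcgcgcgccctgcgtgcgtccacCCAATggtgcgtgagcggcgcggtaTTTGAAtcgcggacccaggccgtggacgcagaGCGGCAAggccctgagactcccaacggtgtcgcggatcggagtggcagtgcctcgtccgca
Cdc20: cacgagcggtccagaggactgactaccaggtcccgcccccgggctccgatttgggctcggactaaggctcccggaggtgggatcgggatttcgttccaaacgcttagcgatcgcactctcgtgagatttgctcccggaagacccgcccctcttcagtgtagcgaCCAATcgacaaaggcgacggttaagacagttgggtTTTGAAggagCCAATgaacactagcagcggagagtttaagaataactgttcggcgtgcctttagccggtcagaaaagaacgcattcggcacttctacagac
Mcm7 held 4 E2F, 1 CHR and 3 CCAAT matches, and Mcm6 held 5 E2F, 0 CHR and 2 CCAAT matches. Cdk1 held all 3 kinds, with 2 E2F, 2 CHR and 3 CCAAT matches. Ccnb2 had 1 E2F, 2 CHR and 3 CCAAT matches. Cdc20 had 1 CHR core and 2 CCAAT boxes and no E2F core. The windows taken for Ccne1, Tk1, Aurka and Bub1 held none of the 3 motifs, which says only that these letters are not there. Each window follows 1 annotated start, and whether that start was used in these samples was not tested.

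Across the 8 samples the genes shared one broad order. Both classes were lowest in the contralateral nerve and the C-level cord and higher in cut nerve and dorsal hemisection cord. The cultures were highest for most genes. Of the 33 genes 31 were highest in Schwann cells at 1 h. The exceptions were Tyms, which makes thymidylate and was highest in the distal nerve, and Kif11, the motor that separates spindle poles, which was highest in Schwann cells at 24 h. The lowest sample was the contralateral nerve for 17 genes and the C-level cord for 16.

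**Figure D1:**
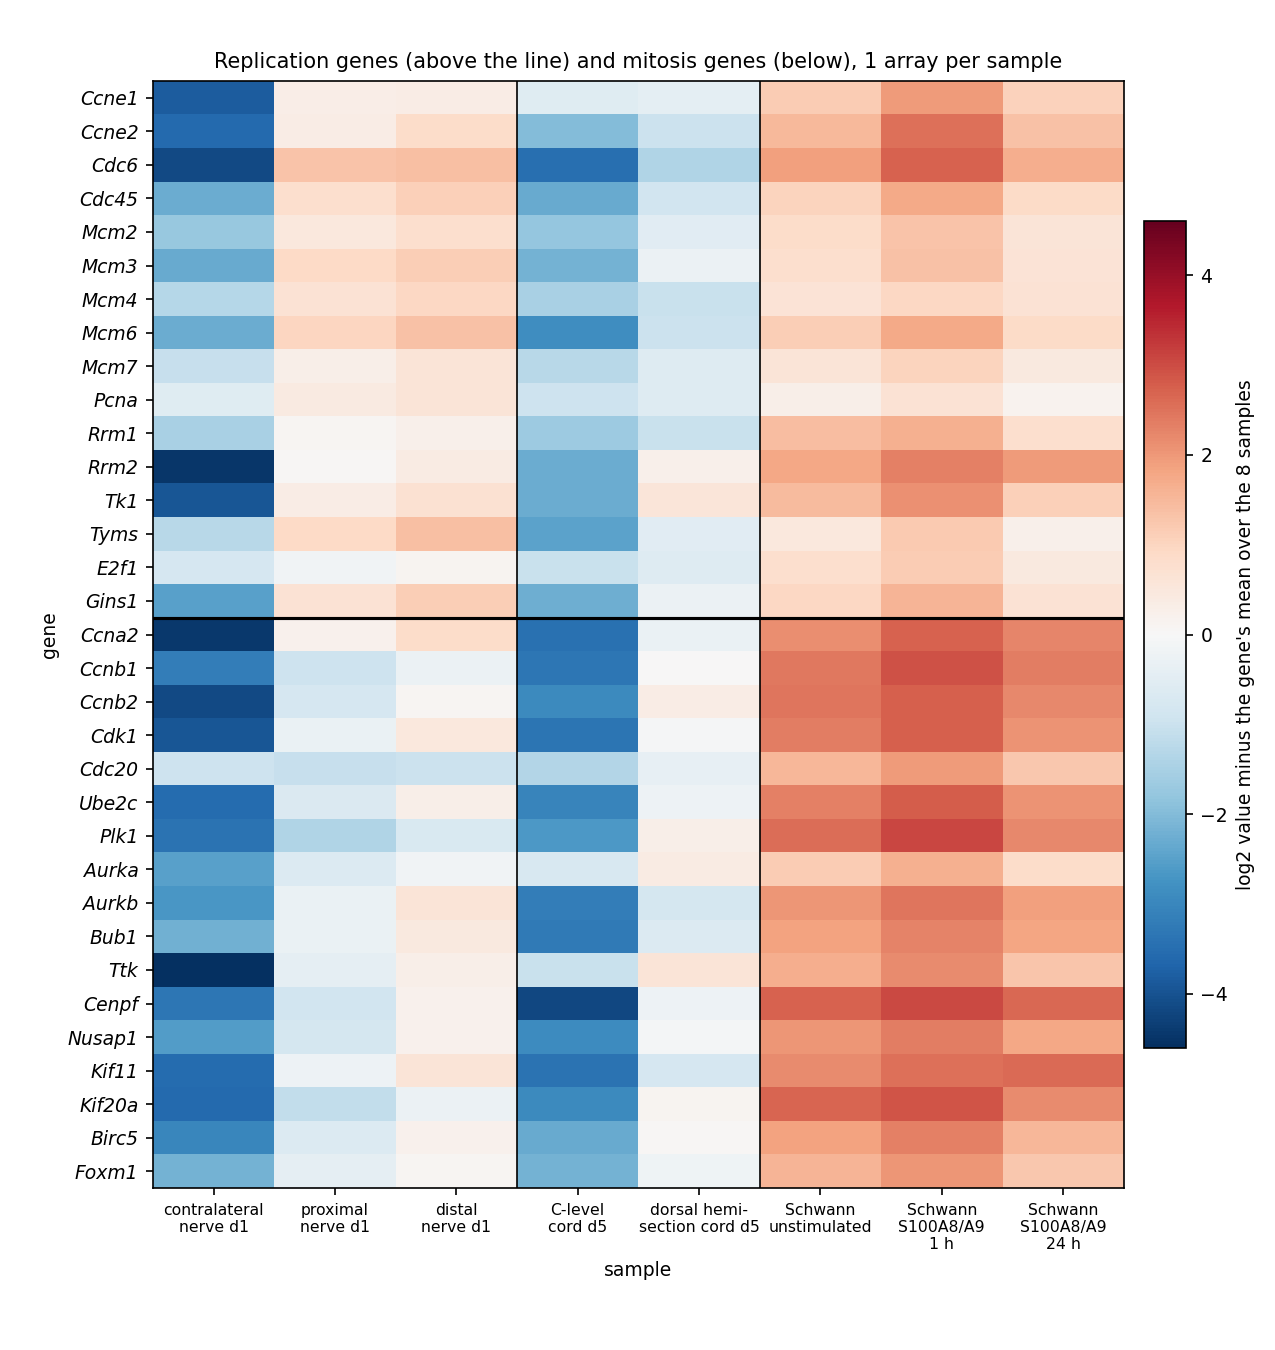
Each row is a gene and each column a sample (1 array each); colour is the log2 value minus the mean of that gene over the 8 samples, with the 16 replication genes above the line and the 17 mitosis genes below it. The contralateral nerve and the C-level cord hold the lowest value of every gene, and 31 of 33 genes are highest in Schwann cells at 1 h.

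The classes parted in how far each sample stood from the gene means. A probe's level cannot be set against that of another probe, so each gene was centred on its own mean over the 8 samples. The median of the replication genes was -2.28 in the contralateral nerve, 0.46 in the proximal and 0.81 in the distal segment, and that of the mitosis genes was -3.33, -0.64 and 0.20. In C-level and dorsal hemisection cord the replication median was -2.09 and -0.58, and the mitosis median -2.93 and -0.08. In the cultures it was 0.99 unstimulated, 1.60 at 1 h and 0.73 at 24 h for replication, and 2.15, 2.54 and 2.08 for mitosis. The replication median thus lay above the mitosis median in all 3 nerve samples and the C-level cord, by 0.61 to 1.10, and below it in the dorsal hemisection cord (-0.50) and the cultures (-0.94 to -1.36). The sum of each gene's centred values is 0, so these positions are relative among these 8 samples.

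**Figure D2:**
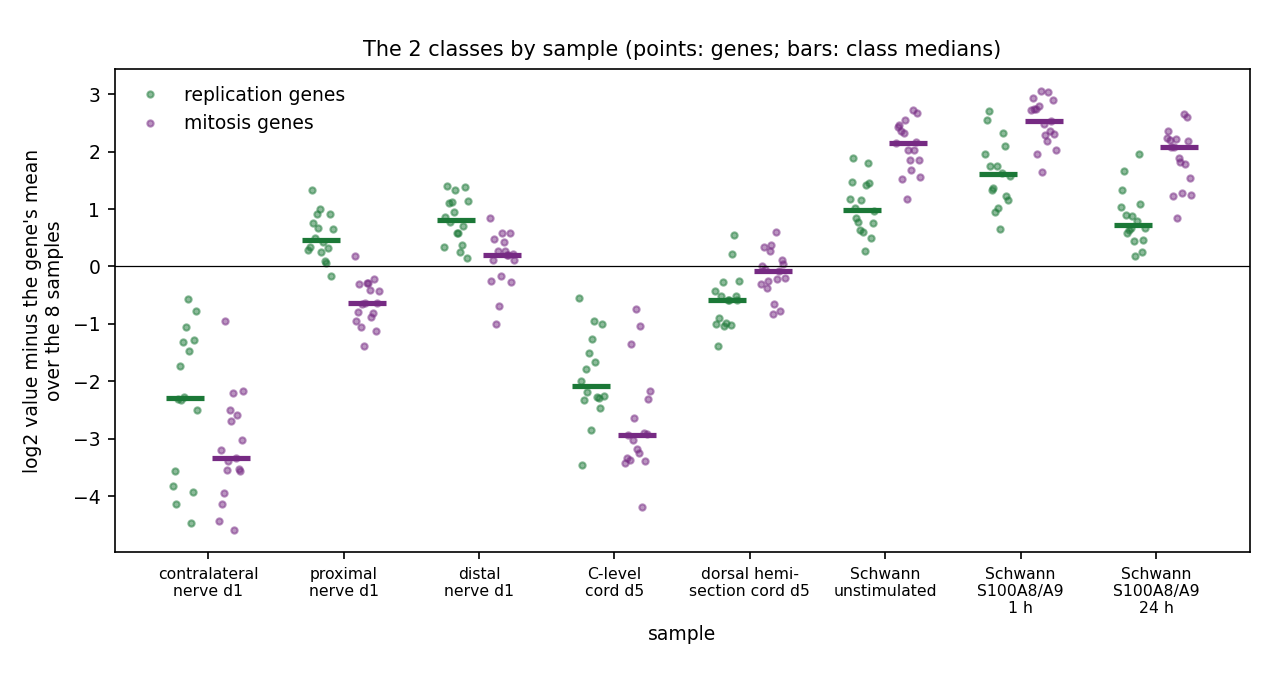
Points are genes and bars are class medians of the log2 value minus the gene's mean over the 8 samples, for replication genes (green) and mitosis genes (purple) in each sample. Replication lies above mitosis in the nerve samples and the C-level cord and below it in the dorsal hemisection cord and the 3 cultures.

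Genes of one class followed each other closely. The median Pearson r over the 8 samples was 0.94 for 120 pairs of replication genes, 0.97 for 136 pairs of mitosis genes and 0.89 for 272 pairs across the classes. These values describe 8 arrays of 3 tissues that share 1 normalization, and much of each r is the distance between tissues. The genes with the lowest median r to the other members were Pcna (0.795), Cdc20 (0.795) and Tyms (0.795).

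In the distal segment 1 day after the cut, both classes were higher than in the contralateral nerve by about the same amount. Of the 33 genes 31 were at least 2-fold higher and 0 were lower, where 13.5% of 12067 genes were at least 2-fold higher and 14.4% lower. The median log2 ratio was 3.29, a 9.78-fold difference, against 0.014 over all genes. The middle gene was Ccne2, whose ratio is a lower bound, so this median is one too. Under normexp and quantile it was 2.18. It was 3.35 for the 16 replication genes and 3.26 for the 17 mitosis genes. The replication minus mitosis difference of 0.087 became -0.21 when only genes above background on both arrays were kept. The scans as recorded gave 13 members at least 2-fold higher and a member median of 0.69.

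In the proximal segment 30 of 33 genes were at least 2-fold higher than in the contralateral nerve and 0 were lower, where 11.2% of 12125 genes were higher and 12.0% lower. The median was 2.44, or 5.41-fold, with 2.91 for replication and 2.39 for mitosis, and was 1.61 under normexp and quantile. This comparison shares its control with the distal one. The replication minus mitosis difference, 0.53, was -0.84 with the scans as recorded.

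The G1/S regulators differed widely. Ccne1 encodes cyclin E1, the partner of CDK2 at the start of S phase. Its log2 values were 6.22 in contralateral, 10.34 in proximal and 10.39 in distal nerve, 9.50 in C-level and 9.61 in dorsal hemisection cord, and 11.23, 12.00 and 11.09 in Schwann cells unstimulated, at 1 h and at 24 h. It was low in the contralateral nerve alone, by 4.17 ± 0.14 against the distal segment and by 3.28 against the C-level cord. Its relative Ccne2 stood at 5.76 and 6.28 in proximal and distal nerve, 3.43 and 4.43 in the cord and 6.90, 7.97 and 6.75 in the cultures, and at 1.86, not well above background, in the contralateral nerve. The distal ratio of Ccne2 was therefore at least 3.29.

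E2f1, the transcription factor of G1/S genes, differed least of the 3 in the nerve. Its values were 9.52, 10.12 and 10.43 in the nerve, 9.28 and 9.71 in the cord and 11.05, 11.44 and 10.75 in the cultures, and the distal ratio was 0.91 ± 0.07. A second E2f1 probe gave 1.70 for the same ratio, which would put the gene past 2-fold.

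All 8 measured genes of origin licensing and of the helicase were at least 2-fold higher in both cut segments, with a distal median of 3.43. Mcm3, a subunit of the MCM2-7 helicase, was at 9.51, 12.75 and 12.96 in contralateral, proximal and distal nerve, 9.66 and 11.57 in C-level and dorsal hemisection cord and 12.62, 13.20 and 12.48 in the cultures. Both cut segments lay within the range of the cultures for this gene. Mcm7, another subunit, had 11.05, 12.36 and 12.69 in the nerve, 10.84 and 11.52 in the cord and 12.71, 13.11 and 12.54 in the cultures, with the smallest distal ratio of the group (1.63 ± 0.07).

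Cdc6, which loads the helicase onto origins, was well above background in cut nerve, dorsal hemisection cord and cultures but not in the contralateral nerve (2.25) or the C-level cord (2.94). It stood at 7.72 and 7.79 in proximal and distal nerve, 5.01 in dorsal hemisection cord and 8.28, 9.10 and 8.05 in the cultures, and its distal ratio was at least 4.81. The helicase activators Cdc45 (3.41 ± 0.08) and Gins1 (3.63 ± 0.04) and the subunits Mcm6 (3.60 ± 0.14), Mcm2 (2.50 ± 0.08) and Mcm4 (2.25 ± 0.10) lay between in the distal segment.

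The genes of the sliding clamp and of nucleotide supply ranged from 1.15 to 4.84 in the distal segment. Rrm2 encodes the small, cell cycle-dependent subunit of ribonucleotide reductase. It had 8.44, 12.98 and 13.28 in the nerve, 10.64 and 13.13 in the cord and 14.71, 15.24 and 14.88 in the cultures, a distal ratio of 4.84 ± 0.08. Pcna, the clamp, which also serves repair, had 11.82, 12.80 and 12.97 in the nerve, 11.43 and 11.79 in the cord and 12.64, 13.03 and 12.56 in the cultures, a distal ratio of only 1.15 ± 0.07. Thymidine kinase Tk1 (4.64 ± 0.14) followed Rrm2, while Tyms (2.66 ± 0.15) and the large reductase subunit Rrm1 (1.73 ± 0.21) lay lower.

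Genes of mitotic entry had the highest distal median of the 7 roles, 4.25. Ccna2, cyclin A2, which acts in both S phase and G2, had the largest distal ratio of all members, bounds aside, 5.26 ± 0.14 or 38.4-fold, from 5.79 in the contralateral nerve to 10.40 in the proximal and 11.05 in the distal segment. It stood at 6.80 and 9.91 in the cord and 12.36, 12.94 and 12.46 in the cultures. Cdk1, the kinase of mitosis, had 8.02, 11.66 and 12.44 in the nerve, 8.59 and 11.91 in the cord and 14.32, 14.70 and 14.04 in the cultures. For both genes every culture lay above every tissue sample. The B cyclins Ccnb2 (4.25 ± 0.15) and Ccnb1 (2.94 ± 0.15) and the G2/M transcription factor Foxm1 (2.27 ± 0.07) were higher in the distal segment too. A second Foxm1 probe, not above background in the contralateral nerve, gave 3.41 for the same ratio.

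The 5 measured mitotic and checkpoint kinases were all at least 2-fold higher distally. Plk1, a kinase of mitotic entry and exit, had 7.14, 9.15 and 9.84 in the nerve, 7.90 and 10.80 in the cord and 13.08, 13.58 and 12.74 in the cultures. Aurka, the centrosome kinase, had 7.88, 9.74 and 10.21 in the nerve, 9.63 and 10.75 in the cord and 11.55, 12.02 and 11.22 in the cultures. Its C-level cord value was close to that of the cut nerve. Distal ratios were 4.86 ± 0.21 for the checkpoint kinase Ttk, 3.26 ± 0.15 for Aurkb and 2.64 ± 0.08 for Bub1. Aurkb had 3.74, 6.13 and 7.00 in the nerve and 8.46, 8.90 and 8.32 in the cultures. In the cord it had 3.24 at C level, not well above background, and 5.60 in dorsal hemisection. The second Bub1 probe was not above background in nerve or cord, so Bub1 rests on 1 probe there.

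The mitotic exit genes parted in the nerve. Ube2c, the ubiquitin-conjugating enzyme of the anaphase-promoting complex, had 5.94, 8.83 and 9.74 in the nerve, 6.46 and 9.23 in the cord and 11.80, 12.28 and 11.57 in the cultures, a distal ratio of 3.80 ± 0.20. Cdc20, the activator of the same complex, had 9.06, 8.95 and 9.01 in contralateral, proximal and distal nerve. Its ratios of -0.046 ± 0.07 distally and -0.10 ± 0.07 proximally were the only ones below 0 among the 33 genes in those comparisons. The distal value was -0.06 and -0.03 under the other scalings of the matched scans. In the cord Cdc20 had 8.65 at C level and 9.63 in dorsal hemisection, a ratio of 0.98 ± 0.07, and in the cultures 11.53, 11.97 and 11.24, which is 2.48 ± 0.07 above the contralateral nerve when unstimulated. Cdc20 was measured by 1 probe.

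**Figure D3:**
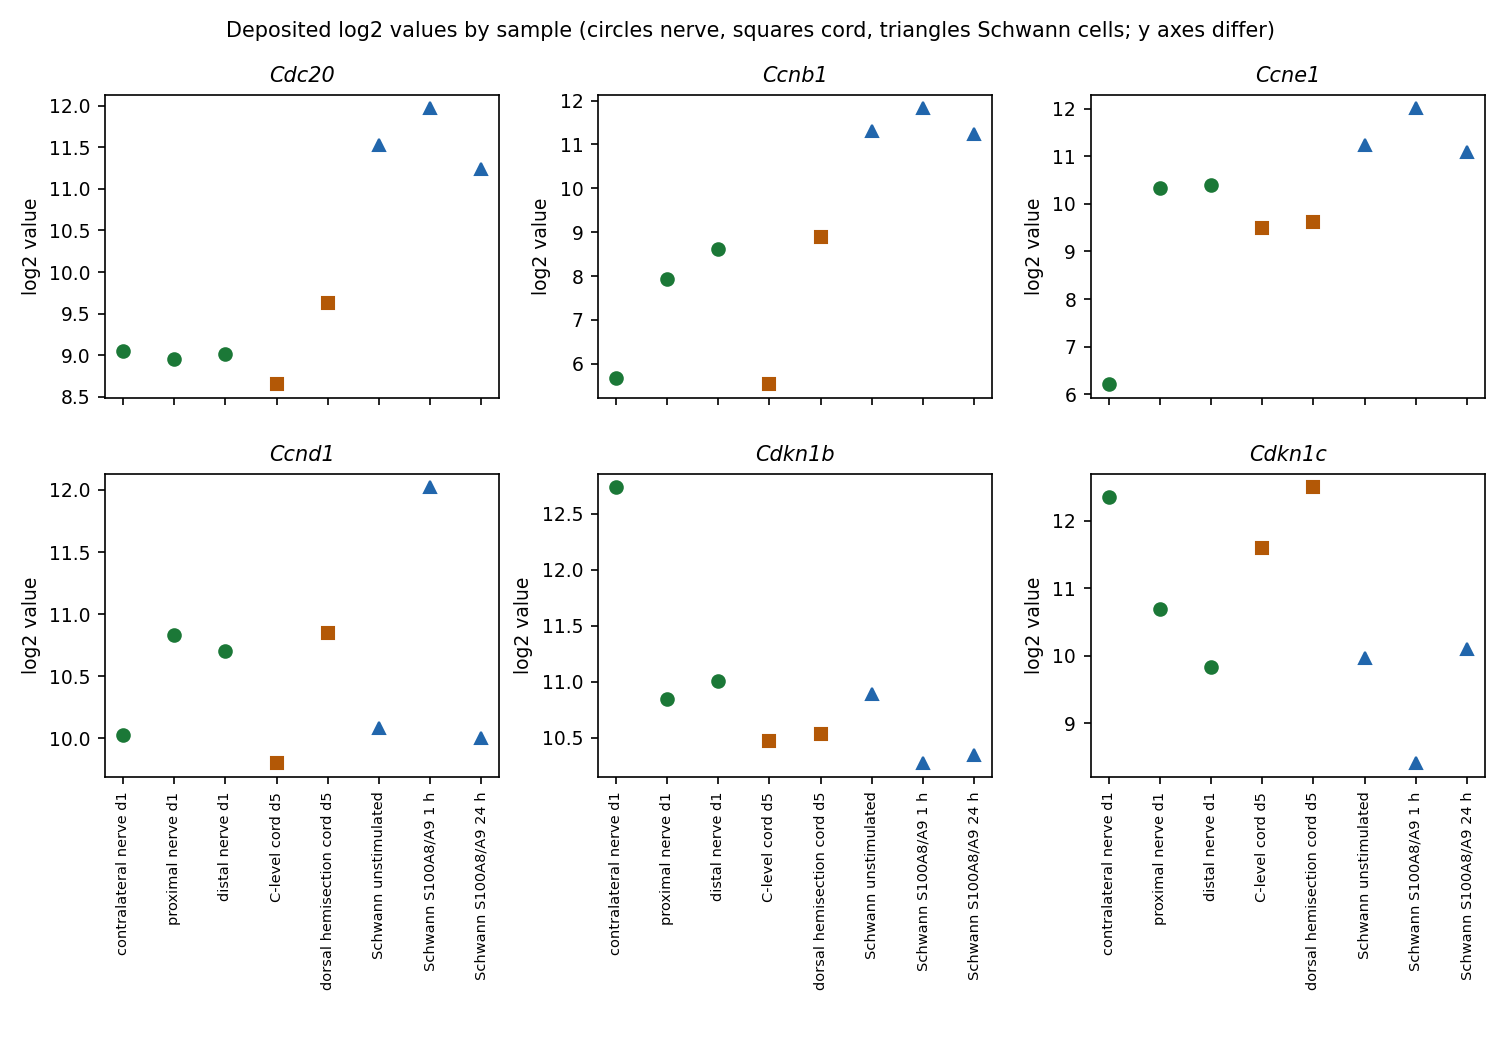
Each panel plots the deposited log2 values of 1 gene in the 8 samples (circles nerve, squares cord, triangles Schwann cells; 1 array each; the axes differ). Cdc20 lies between 8.95 and 9.06 in the nerve while Ccnb1 is higher in both cut segments; Ccnd1 is highest and Cdkn1c lowest in Schwann cells at 1 h.

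Spindle, kinetochore and passenger genes had a distal median of 3.30. Kif20a, a motor of cytokinesis, had 5.92, 8.36 and 9.22 in the nerve, 6.56 and 9.60 in the cord and 12.15, 12.38 and 11.67 in the cultures. Birc5, survivin of the chromosomal passenger complex, had 6.76, 9.14 and 9.99 in the nerve, 7.47 and 9.82 in the cord and 11.63, 12.09 and 11.32 in the cultures. The kinetochore gene Cenpf was not well above background in the contralateral nerve (3.29) or the C-level cord (2.44). It stood at 5.74 and 6.82 in the cut nerve, 6.40 in dorsal hemisection cord and 9.34, 9.66 and 9.28 in the cultures. Its distal ratio was at least 3.53, beside 4.11 ± 0.07 for Kif11 and 2.78 ± 0.06 for Nusap1, which binds spindle microtubules.

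**Figure D4:**
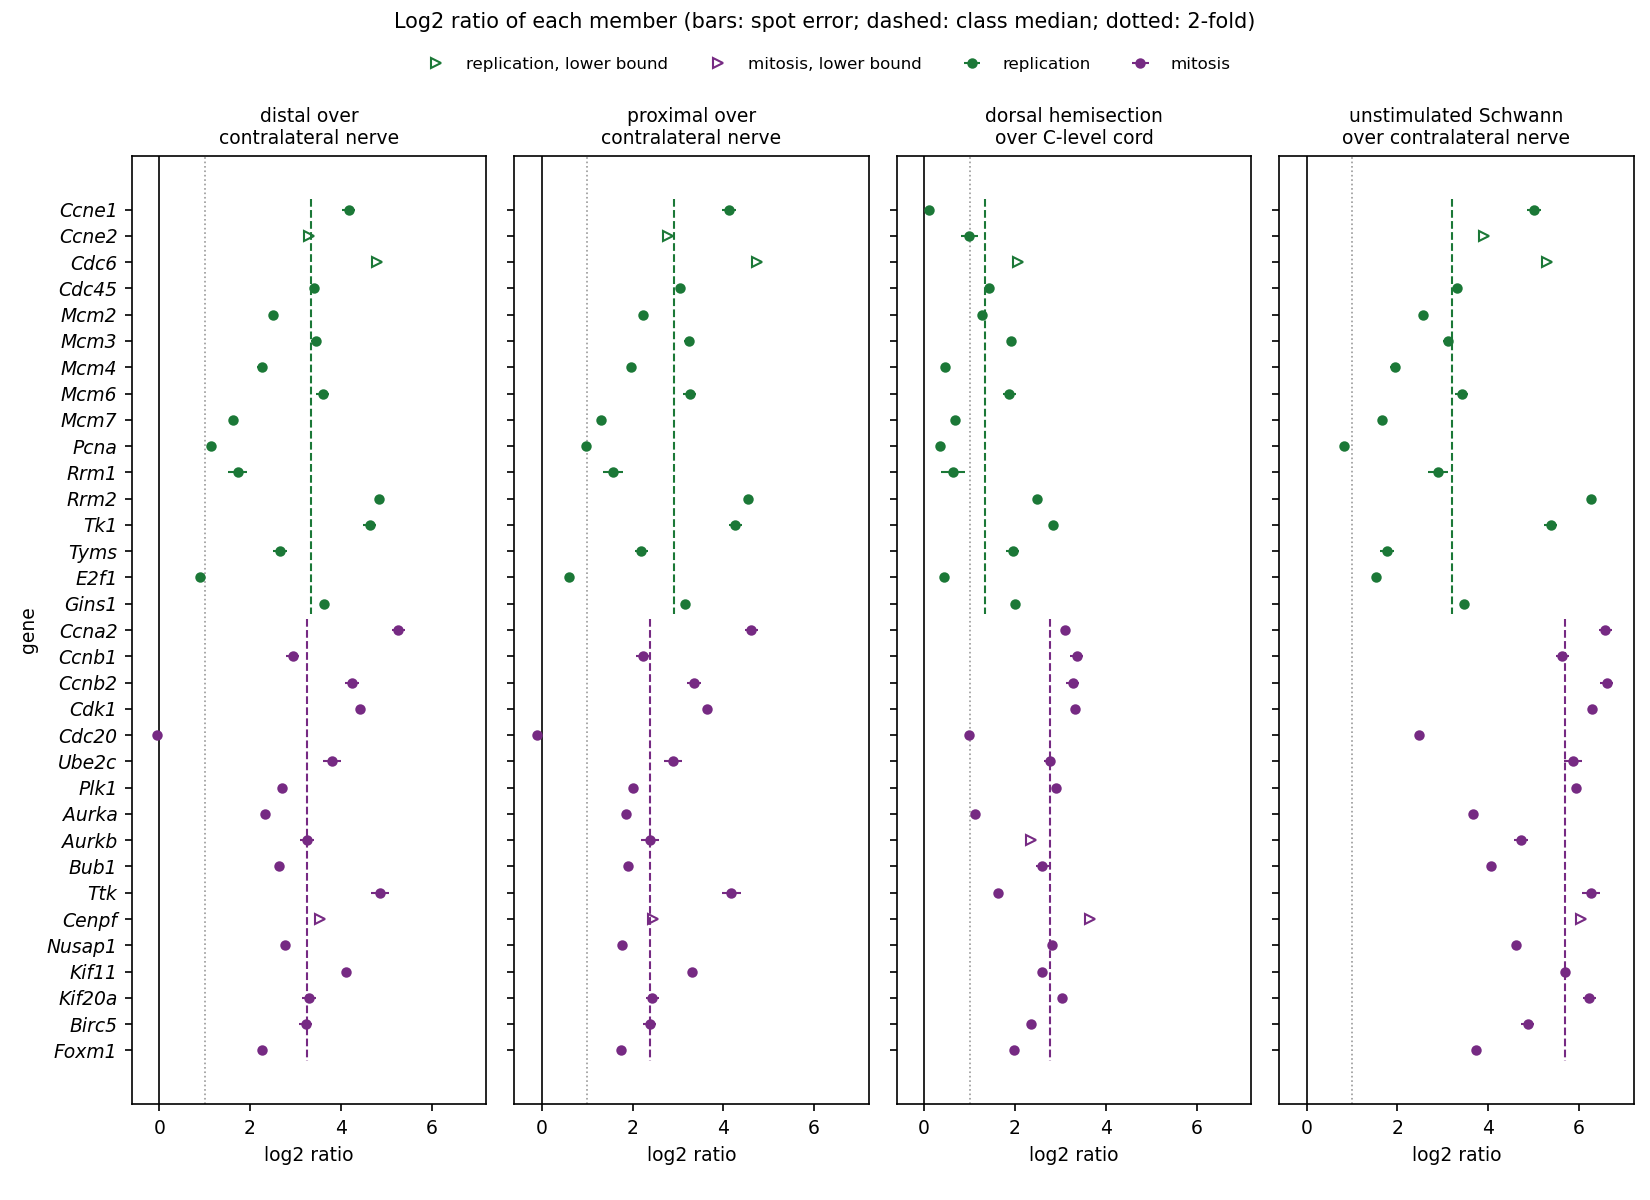
Log2 ratio of each gene in 4 comparisons, replication genes in green and mitosis genes in purple; bars are spot error, open triangles are lower bounds, dashed lines are class medians and the dotted line is 2-fold. The class medians are close in the distal nerve (3.35 and 3.26) and apart in the cord (1.35 and 2.77) and in the unstimulated Schwann cells (3.21 and 5.70); Cdc20 lies near 0 in both nerve panels (-0.046 and -0.10).

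Between the cut segments themselves the mitosis genes differed more than the replication genes. All 33 ratios of distal over proximal were above 0, with a median of 0.48 against 0.018 over all genes. The replication median was 0.30, from 0.05 for Ccne1 to 0.52 for Ccne2, and the mitosis median was 0.78, from 0.06 for Cdc20 to 1.09 for Cenpf. Of the 17 mitosis genes Cenpf (1.09 ± 0.16) and Nusap1 (1.00 ± 0.03) were at least 2-fold higher, where 1.24% of 12193 genes were higher and 1.94% lower. With both other scalings of the matched scans 0 members reached 2-fold. Higher genes were 38.9% of all genes past 2-fold, and 24.2% or 22.6% with the matched scans scaled at the 75th percentile or by normexp and quantile. The member median was -1.91 with the scans as recorded.

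Other genes of the pathway, from lists chosen with earlier results known, were read beside the members. Of 26 other replication genes 21 were at least 2-fold higher in the distal segment and 0 lower (median 1.78), among them the origin recognition subunit Orc1 (3.91 ± 0.15), the chromatin assembly subunit Chaf1b (3.22 ± 0.08) and Cdca7 (3.01 ± 0.07). Of 29 other mitosis genes 25 were higher and 0 lower (median 2.51), among them the mitotic kinase Pbk (at least 5.36), Cdca3 (4.77 ± 0.14), the kinetochore gene Spc25 (4.07 ± 0.14), the CDK subunit Cks2 (3.97 ± 0.08) and the midzone protein Prc1 (3.63 ± 0.07). Proximally 21 of 26 and 20 of 28 were at least 2-fold higher. The shares of higher genes over all genes were 13.5% distally and 11.2% proximally.

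Lists of genes that act before or against S phase, and of repair, had smaller medians. Over all 12067 genes 13.5% were at least 2-fold higher in the distal segment and 14.4% lower. Of 8 G1 cyclins and kinases 2 were at least 2-fold higher distally, Myc (1.34 ± 0.03) and Cdk2 (1.05 ± 0.04), with Cdc25a at 0.89 and Cdk4 at 0.87. Of 8 CDK inhibitors Cdkn1c (p57) was at -2.52 ± 0.07 and Cdkn1b (p27) at -1.73 ± 0.03, while Cdkn3, a phosphatase of CDKs that is itself a cell cycle gene, was at 2.14 ± 0.15. Cdkn1b stood at 12.74 in the contralateral nerve and at 10.84 and 11.01 in the cut segments, and Cdkn1c at 12.35, 10.69 and 9.83. Among 13 antiproliferative genes 4 were at least 2-fold lower and 0 higher: Ccng2 (-1.55), Tob1 (-1.51), Gas6 (-1.45) and Klf9 (-1.42). The 11 pocket protein, E2F, MuvB and Myb genes had 2 higher, Mybl2 (at least 5.23) and the pocket protein gene Rbl1, and 0 lower (median 0.38), and 8 of 10 DNA repair genes were higher (median 1.36), among them the checkpoint kinase Chek1 (2.08 ± 0.15).

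Markers of other cells differed between the same nerve samples. The log2 of the summed neutrophil markers was 11.98 in the contralateral nerve, with 6 of 7 above background, and 15.11 and 14.95 in the proximal and distal segments, with 7 of 7. That of monocyte and macrophage markers was 16.88, 17.47 and 17.59, of T and NK cell markers 9.92, 11.22 and 11.73, and of skeletal muscle 10.32, 15.39 and 12.11. Schwann and myelin markers went the other way (19.39, 18.70 and 18.47), as did fibroblast markers (19.29, 18.14 and 17.92). Most of the macrophage sum was Lyz2, at 16.69, 17.14 and 17.09. Of the 7 macrophage markers 5 were at least 2-fold higher distally, with a median log2 ratio of 1.71, and 4 proximally, with 1.20. The shares over all genes were 13.5% and 11.2%. Adgre1 was at 0.01 distally and -0.80 proximally. In tissue arrays more cells of a type and more RNA per cell cannot be told apart, and the part of these cells in the member ratios was not tested.

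In the cord the mitosis genes exceeded the replication genes. Of the 33 genes 25 were at least 2-fold higher in the dorsal hemisection than in the C-level cord and 0 were lower, where 10.2% of 12165 genes were higher and 9.26% lower. They were 9 of 16 replication genes, with a median of 1.35 (2.55-fold), and 16 of 17 mitosis genes, with a median of 2.77 (6.82-fold). The difference of the medians, -1.42, was -1.22 at the 75th percentile and -0.998 under normexp and quantile. The median of all members, 1.99, was 1.27 under normexp and quantile. It was 0.26 with the scans as recorded, where 0 of them were at least 2-fold higher.

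The cord contrast followed the roles. The G1/S regulators had a median of 0.43, with Ccne1 at 0.12 ± 0.07, E2f1 at 0.43 ± 0.07 and Ccne2 at 0.99 ± 0.18. Licensing and helicase genes had a median of 1.65, from Mcm4 (0.47 ± 0.09) and Mcm7 (0.68 ± 0.06) to Gins1 (1.99 ± 0.04) and Cdc6 (at least 2.07). Among clamp and nucleotide genes Pcna was at 0.36 ± 0.06 and Rrm1 at 0.64 ± 0.26, but Rrm2 at 2.49 ± 0.05 and Tk1 at 2.83 ± 0.08.

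Mitotic entry genes in the cord had a median of 3.27, with Ccnb1 at 3.36 ± 0.14, Cdk1 at 3.32 ± 0.03, Ccnb2 at 3.27 ± 0.14, Ccna2 at 3.11 ± 0.08 and Foxm1 at 1.97 ± 0.06. Kinases had a median of at least 2.36, which is the bound of Aurkb. They ranged from Aurka (1.12 ± 0.06) and Ttk (1.64 ± 0.10) to Plk1 (2.90 ± 0.07). Spindle genes had a median of 2.82, and Cenpf was at least 3.64. The mitosis genes nearest to no difference were Cdc20 and Aurka.

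The other lists had the same order in the cord. At least 2-fold higher were 7 of 26 other replication genes (median 0.74), among them the replication initiation factor Mcm10 (at least 2.08), Chaf1b (1.24 ± 0.06) and Cdca7 (1.20 ± 0.06), and 23 of 28 other mitosis genes (median 2.26), among them Cdca3 (3.51 ± 0.08) and Pbk (3.32 ± 0.14). None of 26 and none of 28 were at least 2-fold lower. Over all 12165 genes 10.2% were at least 2-fold higher in the cord and 9.26% lower. The G1 kinase Cdk6 was at 2.10 ± 0.14 and Myc at 1.22 ± 0.04, and Mybl2, the Myb factor of G2/M transcription, was at 2.72 ± 0.14. In the cord 0 of 8 CDK inhibitors were at least 2-fold lower and 2 were higher, Cdkn2a (1.61 ± 0.14) and Cdkn2c (1.08 ± 0.14), with Cdkn1b at 10.47 and 10.53 in C-level and dorsal hemisection cord.

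Cell type markers differed between the cord samples as well. The summed neutrophil markers were at 12.84 at C level (5 of 7 above background) and 14.64 in the dorsal hemisection (7 of 7), and macrophage markers at 15.36 and 17.56. Fibroblast markers were at 14.71 and 16.87, neuron markers at 17.08 and 15.52, and oligodendrocyte markers at 16.42 and 15.66. Astrocyte markers were close (15.28 and 15.37). Their part in the member ratios was not tested, and the level of the cord cannot be told apart from the treatment.

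Unstimulated Schwann cells, compared with the contralateral nerve, had the largest differences. Of the 33 genes 32 were at least 2-fold higher and 0 lower, where 21.6% of 11920 genes were higher and 20.8% lower. The median was 3.21 for replication genes (9.26-fold) and 5.70 for mitosis genes (52.0-fold), with 15 of 16 and 17 of 17 at least 2-fold higher. Ccnb2 (6.61 ± 0.14, or 97.8-fold), Ccna2 (6.58 ± 0.14), Cdk1 (6.29 ± 0.04), Rrm2 (6.27 ± 0.08), Ttk (6.26 ± 0.20) and Kif20a (6.22 ± 0.14) led, and Pcna was the only member under 2-fold (0.82 ± 0.07). The median over all genes was 0.22 here, and 0.08 with the matched scans scaled at the 75th percentile. The member median exceeded it by 4.39 and 4.19 in these settings and by 2.91 under normexp and quantile. In the scans as recorded 7 members were at least 2-fold higher, and replication minus mitosis turned from -2.49 to 1.63.

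Macrophage and neutrophil markers were lower in the cultures than in nerve and cord. Of 7 neutrophil markers 1 or 2 were above background in a culture, with Ncf1 at 7.95 to 8.13, and S100a8 and S100a9 were not. Of 7 macrophage markers 4 or 5 were above background, with Cd68 at 7.60 to 8.17, and their sum stood at 8.83 to 9.22, against 15.36 to 17.59 in nerve and cord. The cultures came from neonatal and the nerves from adult rats, so age, culture and cell type cannot be told apart. In the cultures Cdkn2a was at 11.57, 12.09 and 11.69, against 7.17 in the contralateral nerve, a ratio of 4.40 ± 0.08 for the unstimulated cells. Cdkn1c (-2.38 ± 0.07) and Cdkn1b (-1.85 ± 0.03) were lower in these cells than in the contralateral nerve.

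A pair of comparisons added after the values were seen set samples with high member values side by side. In the distal nerve against unstimulated Schwann cells, the replication genes had a median of -0.043 and the mitosis genes one of -1.83. All 17 mitosis genes and 2 of 16 replication genes, Rrm2 (-1.42) and Rrm1 (-1.16), were at least 2-fold lower in the nerve, where 18.7% of 12034 genes were higher and 19.3% lower. The largest differences were those of Plk1 (-3.24 ± 0.06) and Kif20a (-2.93 ± 0.06), while Tyms was higher in the nerve (0.89 ± 0.07). The median over all genes was -0.18, and -0.05 with scaling at the 75th percentile.

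In the dorsal hemisection cord against the distal nerve, the replication genes were the lower class. Their median was -1.34, with 12 of 16 at least 2-fold lower, led by Cdc6 (-2.78 ± 0.15) and Mcm6 (-2.32 ± 0.08). The mitosis median was -0.27, with 4 of 17 at least 2-fold lower and 7 of 17 above 0, among them Plk1 (0.96 ± 0.06). Of all 12496 genes 17.3% were higher and 19.4% lower. Higher genes were 47.1% of those past 2-fold and 59.9% with scaling at the 75th percentile, which also moved the median of all genes from -0.17 to -0.0045. Both comparisons share the distal array, and tissue and day cannot be told apart in the second.

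The controls differed from each other less. In the contralateral nerve against the C-level cord the member median was -0.14 over the 31 genes measured, with 2 at least 2-fold higher, Tyms (1.18 ± 0.19) and Bub1 (1.04 ± 0.15), and 7 lower, where 19.8% of 12192 genes were higher and 18.4% lower. Ttk (-3.56 ± 0.21), Ccne1 (-3.28 ± 0.15) and Rrm2 (-2.20 ± 0.08) were the lowest. Cdc6 and Cenpf were above background in neither. A second Mcm4 probe, above background on both arrays, gave 1.19 for this ratio, where the main probe gave 0.19. The second Bub1 probe, above background on neither array, gave 0.13. Taken as recorded, the scans gave 26 members at least 2-fold lower.

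Stimulated with S100A8/A9 for 1 h, Schwann cells had slightly higher values of every member than the unstimulated culture. All 33 ratios were above 0, from 0.22 for Rrm1 to 1.07 for Ccne2, with a median of 0.47 (1.38-fold) against -0.017 over all genes. Only Ccne2 was at least 2-fold higher (1.07 ± 0.09), where 1.70% of 10906 genes were higher and 1.35% lower. The replication median was 0.59 and the mitosis median 0.44. Ccne1 (0.78 ± 0.06) and Cdc6 (0.83 ± 0.08) followed, and Kif20a (0.24 ± 0.05) and Ccnb2 (0.27 ± 0.06) were the lowest mitosis genes. Under normexp and quantile Ccne2 was under 2-fold, and higher genes made 44.7% of all genes past 2-fold instead of 55.7%. The median was -2.30 with the scans as recorded.

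After 24 h no member differed by 2-fold from the same unstimulated culture, and 29 of 33 ratios were below 0. The median was -0.24, with -0.20 for replication and -0.27 for mitosis genes, against 0 over all genes. Of 10998 genes 0.636% were at least 2-fold higher and 0.627% lower, and higher genes made 50.4% of these, or 33.3% under normexp and quantile. Rrm1 (-0.63 ± 0.14) and Kif20a (-0.48 ± 0.05) had the lowest values. Kif11 (0.42 ± 0.03), Rrm2 (0.17 ± 0.05), Ccna2 (0.10 ± 0.05) and Mcm4 (0.03 ± 0.08) were above 0, and second probes of Rrm2, Ccna2 and Mcm4 lay below 0. For the scans as recorded 28 members were at least 2-fold lower.

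**Figure D5:**
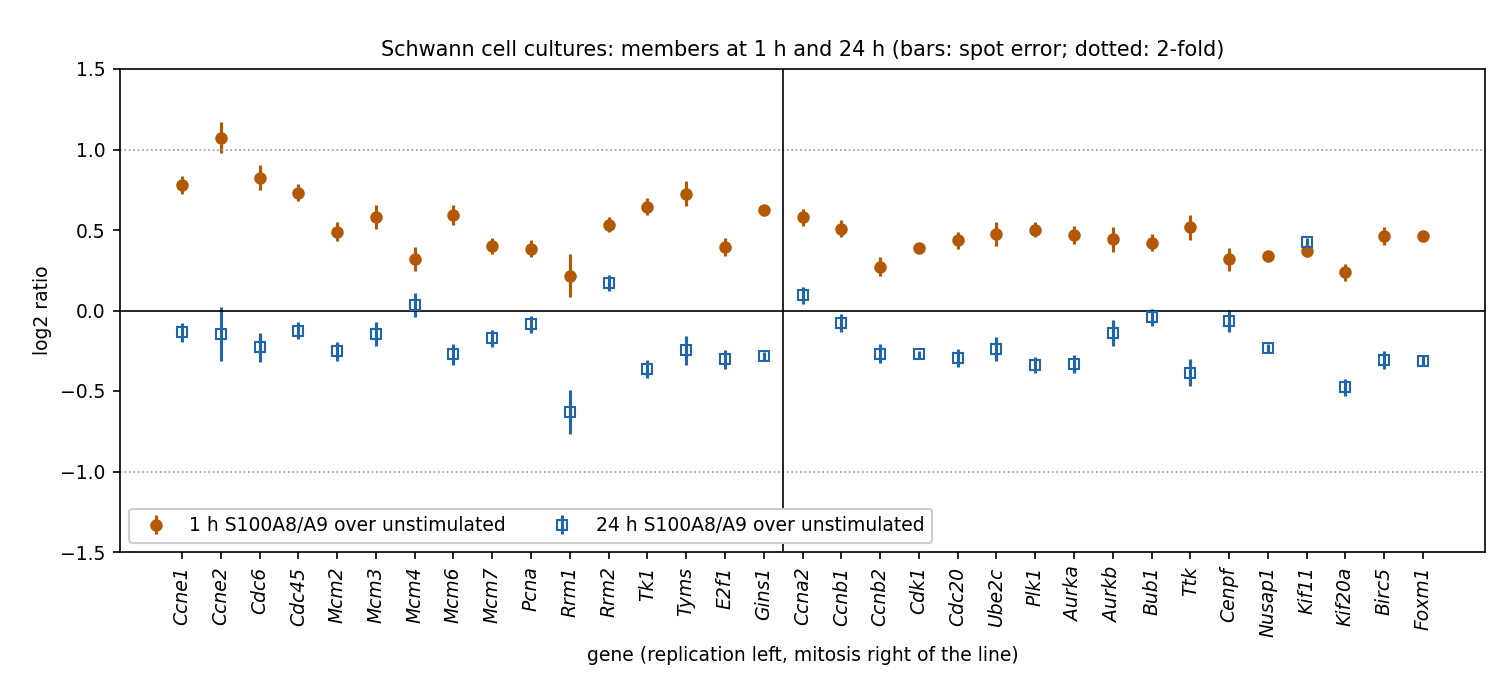
Log2 ratios of each gene in Schwann cells given S100A8/A9 for 1 h (filled circles) and 24 h (open squares) over the same unstimulated culture, 1 array each; bars are spot error and dotted lines are 2-fold. All 33 genes lie above 0 at 1 h, and 29 lie below 0 at 24 h.

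Between the stimulated cultures, which were each measured once, 32 of 33 genes were lower at 24 h than at 1 h, and Kif11 was at 0.06 ± 0.03. The replication median was -0.85 and the mitosis median -0.66. Ccne2 (-1.22 ± 0.17), Cdc6 (-1.05 ± 0.09) and Tk1 (-1.01 ± 0.06) were at least 2-fold lower, where 1.86% of 10897 genes were higher and 2.04% lower. Under normexp and quantile 0 members were at least 2-fold lower, and with the scans as recorded the member median was 0.29.

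Around the members, the largest difference at 1 h was in cyclin D1, the G1 cyclin that mitogens induce. Ccnd1 was at 10.08 unstimulated, 12.02 at 1 h and 10.00 at 24 h, a ratio of 1.94 ± 0.06 at 1 h, with Ccnd2 at 0.77 ± 0.06 and Myc at 0.75 ± 0.03. The inhibitor Cdkn1c was at 9.97, 8.40 and 10.10, a ratio of -1.57 ± 0.07 at 1 h, and Cdkn1b was at 10.89, 10.27 and 10.35. Ccng2, an atypical cyclin of quiescent cells, was at -1.07 ± 0.03 at 1 h. The 26 other replication genes were all above 0 at 1 h (median 0.55), as were 27 of 29 other mitosis genes (median 0.39). Of these 0 passed 2-fold, where 1.70% of all genes were higher and 1.35% lower. Schwann and myelin markers summed to 17.88, 17.20 and 17.96 in the unstimulated, 1 h and 24 h cultures, with 9 of 9 above background in each.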

How the data were processed

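One-colour Agilent arrays (30367 probes) measured total RNA of 8 samples. The authors deposited a value table of log2 values (24894 probes and 44 control rows, every column with a median of 8.03, its normalization not given in the sources used here) and scans of spot intensity. The file headers name Feature Extraction 10.7.3.1, the submitters' processing notes 10.5. Each column rose with the log2 signal of its matched scan with a slope of 0.936 to 1.09, which gives scale and direction, while the centring method stays unknown.

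Probe accessions were matched to symbols of a RefSeq table of GRCr8 (15213 probes). Background flags and spot errors came from the scan with the same ranks as each column. Ratios needed 1 of 2 arrays well above background, and bounds used the lowest value so flagged. The 9 planned comparisons, 6 alternatives and counts at 2-fold needed no test. Code used Python 3.11.15, pandas 2.3.3 and limma 3.58.1 and was tested on simulated data. All members are named, with values in all samples for the 2 of each role with the highest mean, for those with a ratio below 0 in an injury comparison and for those given as bounds. From other lists the genes with the largest ratios, up to 4, are named, and 1 of them is not reported here. Members and lists were chosen with earlier results of these data known.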

Additional observations from a re-analysis of the deposited data

Results flagged for a closer look

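The members differed in direction between the times of stimulation of Schwann cells over the same unstimulated culture. Their median log2 ratio was 0.47 at 1 h and -0.24 at 24 h, and the difference was not tested, since each time had 1 array.

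Cdc20 was near its control in cut nerve and above it in the cord. Its log2 ratio was -0.046 in the distal and -0.10 in the proximal nerve, each over the contralateral nerve, and 0.98 in dorsal hemisection over C-level cord. The distal ratio lies within its spot error of 0, so it has no direction. The difference was not tested, and the cord groups differ in level as well as in treatment.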

How the results depend on the processing

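No paired analysis was possible because each group had 1 array. All values here are log2 unless a count is named. With the matched scans scaled at the 75th percentile every median of the members kept its direction: distal over contralateral nerve 3.13, proximal 2.30, dorsal hemisection over C-level cord 1.79, unstimulated Schwann cells over contralateral nerve 4.27, 24 h over 1 h -0.82, contralateral nerve over C-level cord -0.29, distal nerve over Schwann cells -1.40 and dorsal hemisection cord over distal nerve -0.69. Replication minus mitosis was 0.62 proximally, -1.22 in the cord, -2.27 in Schwann cells over nerve and -1.20 in dorsal hemisection cord over distal nerve, and 0 members were at least 2-fold higher in distal over proximal nerve.

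Normexp and quantile gave smaller medians: 2.18 distally, 1.61 proximally, 0.38 in distal over proximal nerve, 1.27 in the cord, 3.13 in Schwann cells over nerve, -0.020 in contralateral nerve over C-level cord and -0.66 in dorsal hemisection cord over distal nerve. Replication minus mitosis was 0.41 proximally, -0.35 in distal over proximal nerve, -0.998 in the cord, -0.048 at 24 h over 1 h, -1.80 in Schwann cells over nerve, 0.27 in contralateral nerve over C-level cord, 1.71 in distal nerve over Schwann cells and -0.99 in dorsal hemisection cord over distal nerve. Members at least 2-fold higher were 0 in distal over proximal nerve and at 1 h, and members lower 0 at 24 h over 1 h and 4 in contralateral nerve over C-level cord.

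With the mean of all probes replication minus mitosis was -0.14 at 24 h over 1 h, 0.73 in contralateral nerve over C-level cord and -1.35 in dorsal hemisection cord over distal nerve. With no background filter it was 0.72 proximally, and the Schwann over nerve median was 4.72. With both arrays above background it was -0.21 distally, 0.26 proximally and -2.66 in Schwann cells over nerve, whose median was 4.34; this setting drops the genes given as bounds.

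Taken as recorded under each sample, the scans compare other arrays. Members past 2-fold were 13 higher distally, 7 higher in Schwann cells over nerve, 28 lower at 24 h, 26 lower in contralateral nerve over C-level cord, 1 lower in dorsal hemisection cord over distal nerve, 0 higher in the cord, at 1 h and in distal over proximal nerve, and 0 lower at 24 h over 1 h and in distal nerve over Schwann cells. Each count is for the direction reported, and the other direction was not counted. Medians were 0.69 distally, -1.91 in distal over proximal nerve, 0.26 in the cord, -2.30 at 1 h, -1.98 at 24 h, 0.29 at 24 h over 1 h, 0.25 in Schwann cells over nerve, -1.60 in contralateral nerve over C-level cord, 0.47 (reversed) in distal nerve over Schwann cells and 1.40 in dorsal hemisection cord over distal nerve. Replication minus mitosis was 1.20 distally, -0.84 proximally, 1.55 in distal over proximal nerve, -0.057 in the cord, -0.62 at 1 h, -0.52 at 24 h, -0.58 at 24 h over 1 h, 1.63 (reversed) in Schwann cells over nerve, 0.94 in contralateral nerve over C-level cord, -0.46 (reversed) in distal nerve over Schwann cells and -1.79 in dorsal hemisection cord over distal nerve. Of the members past 2-fold, 7 of 31 had the opposite sign distally, 0 of 30 proximally and 3 of 25 in the cord. The counts were 14 of 32 in Schwann cells over nerve and 2 of 9 in contralateral nerve over C-level cord. They were 19 of 19 in distal nerve over Schwann cells and 9 of 16 in dorsal hemisection cord over distal nerve. In distal over proximal nerve the count was 2 of 2, at 1 h 1 of 1, and at 24 h over 1 h 2 of the 2 compared. Among the members past 2-fold with values given in all samples, Plk1 (-0.92), Aurka (-0.52), Kif20a (-0.43) and Cenpf (-0.029) were reversed distally, and Rrm2 (-0.10) and Ccna2 (-0.10) in the cord. Among the 24 promoters E2F cores were in 9, or 7 with 2 variants of the core, CHR cores in 11, or 9 in a window of 200 bases, and CCAAT boxes in 18, or 15.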
